A study of Mus musculus with 12 samples.

Results

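The enzymes that write, maintain and remove DNA methylation were followed in mouse embryonic stem cells treated with panobinostat (LBH589), which blocks histone deacetylases. The set was a list of 9 genes, of 19057 named on the array: the methyltransferases Dnmt1, Dnmt3a and Dnmt3b, their cofactor Dnmt3l, the dioxygenases Tet1, Tet2 and Tet3, the maintenance factor Uhrf1 and the DNA glycosylase Tdg. All probes annotated to these genes were taken, whatever they measured. Of the 9 genes, 8 had a probe, with 16 of the 45281 probes on the array; Tet2 had none in the annotation and was not analysed here. Signal stood above background (3 or more of the 12 arrays with a detection p-value under 0.05) at 8 of the 16 probes, which belonged to 6 genes, among 20029 such probes on the array.

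The cells were the wild type male E14 line of strain 129/Ola, grown on gelatin without feeder cells in serum and LIF, the cytokine that keeps embryonic stem cells from differentiating. There were 4 groups with 3 Illumina bead arrays each, 12 arrays in all: cells with no drug (0 h) and cells kept in 50 nM panobinostat for 2, 6 and 18 h. The labels call the arrays of a group triplicates and do not say whether they came from separate cultures, so the p-values cover only the spread among the arrays of a group, which may be technical. The labels name no vehicle and no untreated cells kept for the same times, so the drug, the handling and the time in culture cannot be told apart. Between 16813 and 18111 probes per array had a detection p-value under 0.05, the mean deposited signal was 307.3 to 482.7 intensity units, and arrays of a group correlated at 0.970 to 0.988. All 8 embryonic stem cell markers examined were detected on every array. Of 8 fibroblast markers, Thy1 was detected on every array, Col1a1, Col1a2 and Pdgfrb on some, and Col3a1, Postn, Lum and Dcn on none. Markers of other cell types were detected too. On all 3 arrays of 0 h these were 5 of 7 trophectoderm, 3 of 5 extraembryonic endoderm and 2 of 6 endothelium and blood markers.

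DNA methylation in mammals sits mainly on cytosines followed by guanine (CG). Dnmt3a and Dnmt3b place it on unmethylated DNA with the help of Dnmt3l, which resembles them but has no catalytic activity of its own. Uhrf1 recognises the hemimethylated DNA left by replication and brings in Dnmt1, which copies the mark to the new strand. The Tet enzymes oxidise methylcytosine in steps, and Tdg cuts out the most oxidised forms, which base excision repair then replaces with cytosine. Serum-grown embryonic stem cells are known for abundant Tet1 and for active de novo methylation through the Dnmt3 proteins.

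The promoters of the 5 genes whose time courses are described most fully below are shown because CG dinucleotides are the substrate of these enzymes. Each sequence runs from 250 bases before to 50 bases after a transcription start of RefSeq on GRCm38.p6, 5′ to 3′ on the gene's strand, with every CG in capitals. Where RefSeq has several starts, the one with most CG is shown, and which start the cells used was not measured. The windows are chr10:62887275-62887574 (minus strand) for Tet1, chr2:153649199-153649498 (plus) for Dnmt3b, chr10:78042037-78042336 (plus) for Dnmt3l, chr9:20952574-20952873 (minus) for Dnmt1 and chr17:56304063-56304362 (plus) for Uhrf1.
Tet1: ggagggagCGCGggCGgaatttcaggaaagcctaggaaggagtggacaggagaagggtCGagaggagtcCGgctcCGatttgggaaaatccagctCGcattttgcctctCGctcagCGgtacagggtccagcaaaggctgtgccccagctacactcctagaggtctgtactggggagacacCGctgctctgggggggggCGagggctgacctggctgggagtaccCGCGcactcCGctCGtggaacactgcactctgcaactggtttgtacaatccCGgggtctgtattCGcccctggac
Dnmt3b: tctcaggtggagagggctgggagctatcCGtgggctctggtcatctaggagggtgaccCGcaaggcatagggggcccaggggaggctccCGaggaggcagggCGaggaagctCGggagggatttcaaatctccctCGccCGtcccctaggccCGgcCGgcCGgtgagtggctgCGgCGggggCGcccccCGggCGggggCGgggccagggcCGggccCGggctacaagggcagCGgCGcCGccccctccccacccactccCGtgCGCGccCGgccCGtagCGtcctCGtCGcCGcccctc
Dnmt3l: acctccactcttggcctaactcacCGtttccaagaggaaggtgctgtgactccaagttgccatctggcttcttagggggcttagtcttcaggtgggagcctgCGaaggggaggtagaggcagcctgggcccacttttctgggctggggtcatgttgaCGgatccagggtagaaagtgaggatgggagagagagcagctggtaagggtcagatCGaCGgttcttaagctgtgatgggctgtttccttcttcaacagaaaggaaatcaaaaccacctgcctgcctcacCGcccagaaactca
Dnmt1: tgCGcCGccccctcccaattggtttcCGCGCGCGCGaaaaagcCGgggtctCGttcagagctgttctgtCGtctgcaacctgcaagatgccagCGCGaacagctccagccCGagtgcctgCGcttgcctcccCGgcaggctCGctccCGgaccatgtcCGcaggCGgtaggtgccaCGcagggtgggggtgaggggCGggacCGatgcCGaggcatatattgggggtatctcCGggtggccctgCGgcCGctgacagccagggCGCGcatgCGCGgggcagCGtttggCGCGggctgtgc
Uhrf1: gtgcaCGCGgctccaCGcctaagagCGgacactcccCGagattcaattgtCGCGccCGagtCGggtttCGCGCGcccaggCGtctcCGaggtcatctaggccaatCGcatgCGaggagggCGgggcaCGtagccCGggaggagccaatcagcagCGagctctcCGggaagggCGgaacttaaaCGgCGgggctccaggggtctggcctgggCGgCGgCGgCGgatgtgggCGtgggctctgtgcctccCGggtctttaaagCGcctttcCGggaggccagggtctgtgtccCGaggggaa
The Tet1 window held 17 CG, the Dnmt3b window 30, the Dnmt3l window 6, and the Dnmt1 and Uhrf1 windows 33 each. The median over 32851 RefSeq promoters of the same length was 7. Of the 5 windows shown only that of Dnmt3l lay below it, and 88.3% of promoters had fewer CG than that of Dnmt3b. Showing the start with most CG raises the counts of genes with several starts, while the median covers all starts. The other starts of Dnmt1 held 2 and 12 CG, that of Uhrf1 12 and those of Dnmt3l 4 and 3. The GC box GGGCGG, searched on both strands, occurred 4 times in the Dnmt3b window and at least once in the other 4 windows, against 35.7% of all promoters with 1 or more. The letters TTTGGCGC of an E2F site, also on both strands, occurred once in the Dnmt1 window and in none of the other 4, against 0.514% of all promoters. The other starts of Dnmt1 held neither a GC box nor an E2F site. The other start of Uhrf1 held 1 GC box, and those of Dnmt3l 2 and 0. DNA methylation itself was not measured in these samples.

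Tet1, Dnmt3b and, less firmly, Dnmt3l had a probe that changed with exposure time, and Dnmt1 and Uhrf1 did not pass the test in any comparison. The test was limma's moderated test on log2 signal, fitted over all 20029 probes, with Benjamini-Hochberg adjustment and a threshold of 0.05, and a log2 change of 1 is a 2-fold difference. Asked for any change over the 4 times, 4 of the 8 probes passed, against 38.6% of all probes. They were the Tet1 probe, both Dnmt3b probes and Dnmt3l probe 2. The Dnmt3l call was lost under 9 of 21 alternatives in processing and samples, while those of Tet1 and Dnmt3b held under all. Against 0 h, 0 of the 8 probes passed at 2 h by limma (0 also had an unadjusted p under 0.05), where 2.56% of all probes did. At 6 h 1 of 8 passed, against 27.2% of all probes, and at 18 h 3 of 8, against 32.3%. All 4 of these calls were lower than 0 h, as were 12.9% of all probes at 6 h and 15.8% at 18 h. The 3 at 18 h were the Tet1 probe and both probes of Dnmt3b, so 1 gene counts more than once. With 8 probes these shares do not set the enzymes apart from the array as a whole. The 3 comparisons use the same 0 h arrays. Where groups are said below to overlap or not, the share of all probes that separate likewise is not given, so the separation is description only.

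**Figure D1:**
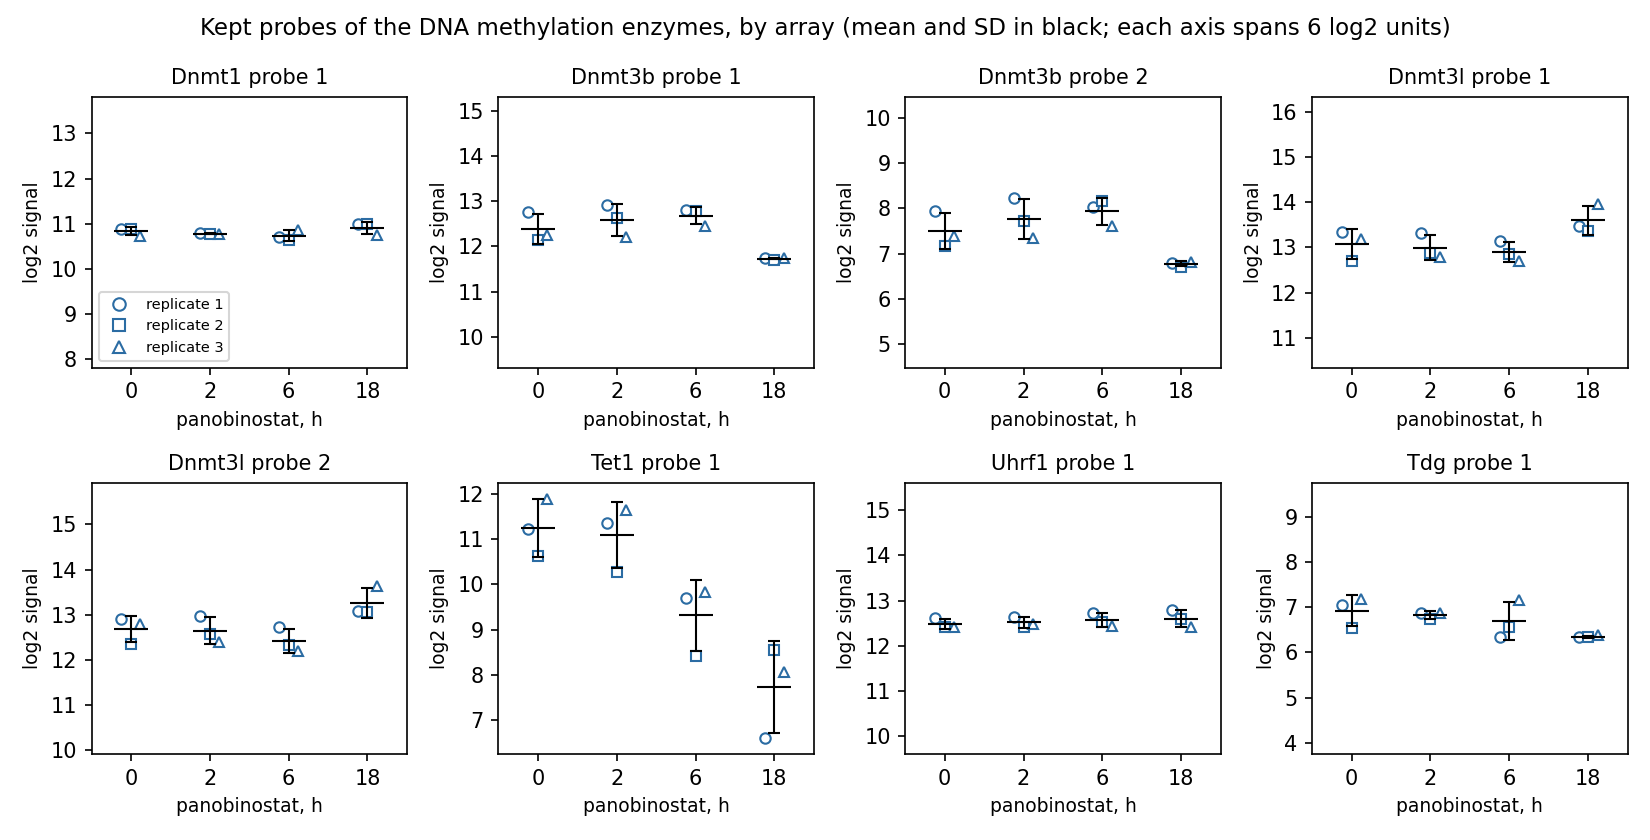
Log2 signal after background correction and quantile normalization (vertical axis, 6 log2 units in every panel) at 0, 2, 6 and 18 h of panobinostat (horizontal axis), for the 8 probes that could be tested. Open symbols are single arrays, with a shape for each replicate number, and black bars are the mean and SD of 3 arrays; Tet1 falls over several log2 units, Dnmt3b steps down at 18 h, and Dnmt1 and Uhrf1 stay close to their 0 h level.

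Tet1, the dioxygenase that starts the removal of methylcytosine, fell furthest of the enzymes measured. Its probe read 11.23, 10.63 and 11.89 (log2 signal) on the 0 h arrays and 11.36, 10.27 and 11.65 at 2 h. It read 9.70, 8.42 and 9.84 at 6 h and 6.60, 8.56 and 8.06 at 18 h. The 2 h arrays overlapped the 0 h arrays, every 6 h array lay below every earlier one, and the 18 h arrays overlapped those of 6 h. Replicate 2 was the lowest of its group at 0, 2 and 6 h and the highest at 18 h. The mean was 7.74 ± 1.01 at 18 h, against 11.25 ± 0.63 at 0 h (SD, n = 3 each). That is a log2 change of -3.51 (SE 0.51, 95% confidence interval -4.61 to -2.42, adjusted p = 0.000197), or an 11.4-fold lower signal, and 4 of the 20029 probes had a lower change. In the signals as deposited, the 18 h arrays read 211.5 to 494.8 intensity units, against 1342 to 3116 on the 0 h arrays, and the probe was detected on all 12 arrays.

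At 6 h Tet1 was already 3.82-fold lower than at 0 h, with a mean of 9.32 ± 0.78 at 6 h, against 11.25 ± 0.63 at 0 h (SD, n = 3 each), a log2 change of -1.93 (SE 0.51, adjusted p = 0.0126). At 2 h the change was -0.15 (SE 0.51, adjusted p = 0.928), with an interval of -1.25 to 0.94 that leaves room for sizeable changes either way. The step between 2 and 6 h was -1.78 (6 h minus 2 h, adjusted p = 0.0415), where 1 of the 8 probes and 9.80% of all probes passed (4.40% of all being lower). The step between 6 and 18 h, -1.58 (18 h minus 6 h), did not pass (adjusted p = 0.0693). The 18 h call held under all 24 alternatives. The 6 h call was lost without 0 h replicate 3 (adjusted p = 0.0569), without 6 h replicate 2 (0.0644) and with no filter on dim probes (0.053).

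The embryonic stem cell markers moved in the same arrays as Tet1. Of 8 markers, 0 passed at 2 h, 6 fell at 6 h and 7 at 18 h, with median log2 changes of -0.50, -1.64 and -2.22. Of 11445 genes taken by their brightest testable probe, 101 fell at 2 h, 1491 at 6 h and 1722 (15.0%) at 18 h. Of the same genes 241 rose at 2 h, 1957 (17.1%) at 6 h and 2313 (20.2%) at 18 h. Pou5f1, the transcription factor Oct4, stood at 8.31 ± 0.23 at 18 h (SD, n = 3), a change of -2.28 against 0 h (adjusted p = 2e-06). The summed deposited signal of the 8 markers was 22273 to 34739 units per array at 18 h, against 38445 to 45031 at 0 h. Of 8 fibroblast markers 3 could be tested, of which 1 rose at 6 h (Thy1, by 1.82) and 2 at 18 h (Thy1, by 2.22, and Pdgfrb). Pdgfrb was not detected at 0 h and entered the test through later arrays only. All 8 fibroblast markers summed to a deposited signal of 1369 to 1804 units per array at 18 h, against 773.9 to 1016 at 0 h. The part of these markers in the fall of Tet1 was not tested. In RNA from a whole culture, fewer cells of a kind and less RNA per cell cannot be told apart. The 2 genes with the time course most like Tet1, among 11444 others and by Pearson correlation over the 12 arrays, were Ran (r = 0.978) and Cobl (r = 0.972). Ran, a small GTPase of nuclear transport, had log2 changes of -0.07 at 2 h, -0.54 at 6 h and -0.82 at 18 h. Cobl, which encodes an actin nucleator, had changes of -0.32, -1.86 and -3.03 at the same times. The 12 points of such a correlation share 4 times and their normalization.

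Tet3, the family member known best from the oocyte and zygote, could not be measured. Its 3 probes read 90.6 to 142.3 intensity units, the range of the negative controls, and the detection p-value fell under 0.05 once in 12 arrays for 2 of them. Tdg, the glycosylase that acts after the Tet enzymes, had 1 probe that could be tested. It read 7.06, 6.53 and 7.17 (log2 signal) at 0 h, 6.87, 6.74 and 6.88 at 2 h, 6.35, 6.57 and 7.16 at 6 h, and 6.34, 6.33 and 6.38 at 18 h. In this normalized signal the 18 h arrays all lay below the 0 h arrays, and the change of -0.57 (SE 0.21, adjusted p = 0.0539) did not pass. The change passed under 8 of 24 alternatives, with adjusted p between 0.0135 and 0.186 over the 24. In the signals as deposited the probe was dim and the groups overlapped. There it read 176.4 to 226.6 intensity units at 18 h (mean 198.4), against 164.2 to 209.4 at 0 h (mean 181.1). The other Tdg probe was detected on 0 of 12 arrays. A pseudogene copy of Tdg is also annotated on the array, and RNA of the copy could bind the same probe, so the Tdg reading is uncertain.

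**Figure D2:**
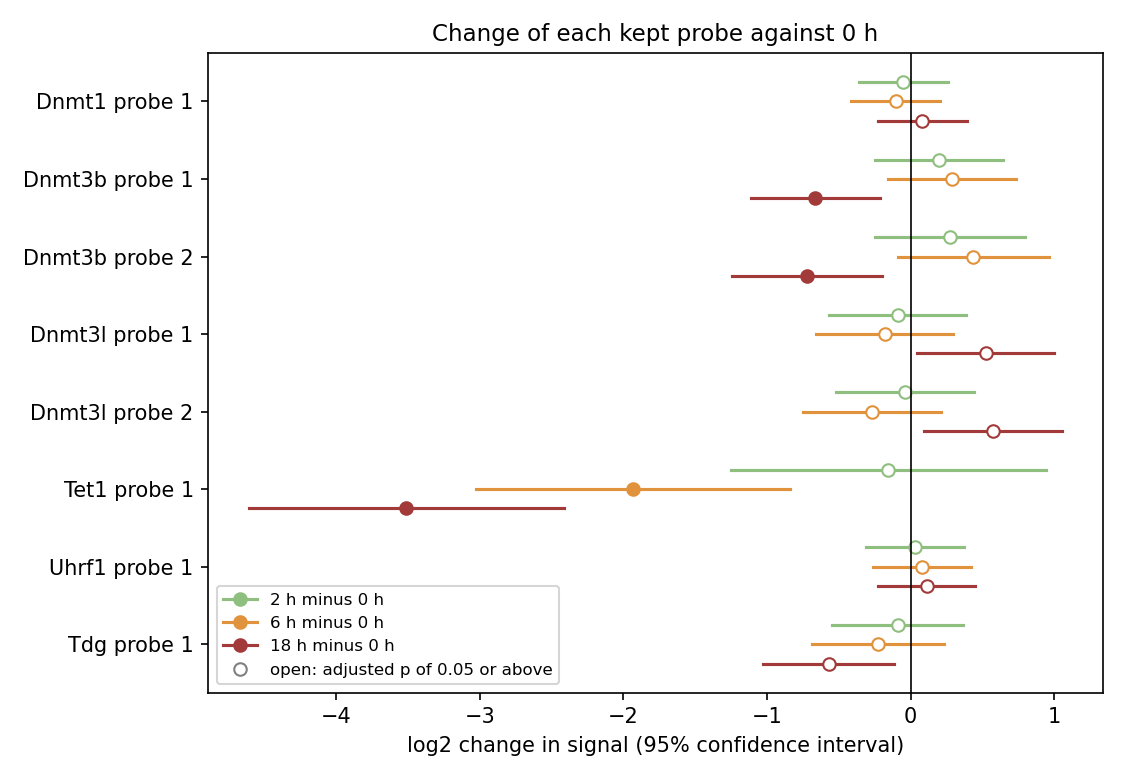
Log2 change in signal (horizontal axis) at 2, 6 and 18 h against 0 h for each testable probe (rows), with 95% confidence intervals; filled points have an adjusted p under 0.05. Tet1 reaches -3.51 at 18 h, both Dnmt3b probes lie below 0 only at 18 h, and the Dnmt1 and Uhrf1 intervals all include 0.

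Dnmt3b, a de novo methyltransferase of embryonic stem cells, fell at 18 h after showing no called change at 2 or 6 h. Its probe 1 read 12.77, 12.14 and 12.26 (log2 signal) at 0 h, 12.92, 12.64 and 12.21 at 2 h, 12.80, 12.78 and 12.46 at 6 h, and 11.74, 11.71 and 11.73 at 18 h. Its probe 2 read 7.94, 7.16 and 7.40 at 0 h, 8.24, 7.72 and 7.35 at 2 h, 8.02, 8.17 and 7.61 at 6 h, and 6.79, 6.71 and 6.82 at 18 h. On both probes every 18 h array lay below every other array in this normalized signal, and the 18 h arrays were close together. In the signals as deposited the groups overlapped. There probe 1 read 2845 to 4601 intensity units at 18 h, against 3903 to 7522 at 0 h. Probe 2 read 199.3 to 272.6 units at 18 h, against 186.2 to 314.6 at 0 h. Probe 1 averaged 11.73 ± 0.02 at 18 h and 12.39 ± 0.33 at 0 h (SD, n = 3 each), a log2 change of -0.66 (SE 0.21, adjusted p = 0.025), or 1.58-fold lower. Probe 2 changed by -0.72 (SE 0.24, adjusted p = 0.035).

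Set against 6 h, the fall of Dnmt3b at 18 h was larger: -0.95 (SE 0.21, adjusted p = 0.0128) on probe 1 and -1.16 (SE 0.24, adjusted p = 0.0104) on probe 2, where 3 of the 8 probes and 9.15% of all probes passed. Of the 3, 2 were lower, both of them probes of Dnmt3b, and 1, of Dnmt3l, was higher, against 4.33% and 4.81% of all probes. The 3 therefore stand for 2 genes. With only the leading probe of each gene fitted, 1 of the 6 enzymes passed. The 6 h values themselves were 0.29 (adjusted p = 0.342) and 0.44 (adjusted p = 0.208) above 0 h. The 18 h call against 0 h on probe 1 was lost without 0 h replicate 1 (a change of -0.48, adjusted p = 0.117) and, at adjusted p of 0.0586, 0.0581 and 0.0533, without 18 h replicate 1, 2 or 3. That on probe 2 was lost under 9 of 22 alternatives, among them no background correction (a change of -0.44, adjusted p = 0.0566). The genes with the time course most like Dnmt3b were Umps (r = 0.964), an enzyme of pyrimidine synthesis, and Gng3 (r = 0.939), a G protein subunit, over the same 12 arrays and 11444 genes. Umps had log2 changes of 0.27, 0.25 and -0.50 at 2, 6 and 18 h.

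Dnmt3l, the cofactor of the de novo enzymes, was highest at 18 h. Its probe 1 read 13.35, 12.71 and 13.19 (log2 signal) at 0 h, 13.31, 12.87 and 12.79 at 2 h, 13.13, 12.86 and 12.71 at 6 h, and 13.48, 13.36 and 13.97 at 18 h. Its probe 2, annotated to another RefSeq transcript, read 12.90, 12.36 and 12.80 at 0 h, 12.97, 12.57 and 12.40 at 2 h, 12.73, 12.33 and 12.20 at 6 h, and 13.09, 13.05 and 13.63 at 18 h. On both probes every 18 h array lay above all others in this normalized signal, by a margin as small as 0.01 over the 0 h arrays on probe 1. In the signals as deposited the groups overlapped. There probe 1 read 8979 to 19134 intensity units at 18 h, against 5835 to 11100 at 0 h and 5492 to 13791 at 2 h. Probe 2 read 7019 to 15927 units at 18 h, against 4540 to 8236 at 0 h. Probe 2 rose between 6 and 18 h by 0.84 (SE 0.22, adjusted p = 0.0325), to 13.26 ± 0.33 at 18 h, against 12.42 ± 0.28 at 6 h (SD, n = 3 each). Probe 1, the leading one, averaged 13.60 ± 0.32 at 18 h and 12.90 ± 0.22 at 6 h, a change of 0.70 that did not pass (adjusted p = 0.0636, called under 6 of 24 alternatives), and it missed the F test over the 4 times (adjusted p = 0.0694). Against 0 h the change of probe 2, 0.57 (SE 0.22), did not pass (adjusted p = 0.066) but was called under 4 of 22 alternatives (lowest adjusted p = 0.0422), and that of probe 1, 0.52 (SE 0.22), did not pass (adjusted p = 0.088) as reported or under any of 24. The probe 2 call between 6 and 18 h was lost in 5 of 22 alternatives: with 75th percentile scaling (adjusted p = 0.147), with no filter on dim probes (0.0638), and without replicate 2 (0.101) or 3 (0.123) of 6 h or replicate 3 of 18 h (0.115). With 75th percentile scaling the 18 h change of Dnmt3l probe 1 against 0 h was -0.01.

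Dnmt3a, the other de novo methyltransferase, was not detected on any array by any of its 3 probes. Their deposited signals of 86.1 to 123 intensity units gave detection p-values of 0.0812 and above. The values do not show whether Dnmt3a was absent or below what these probes detect.

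**Figure D3:**
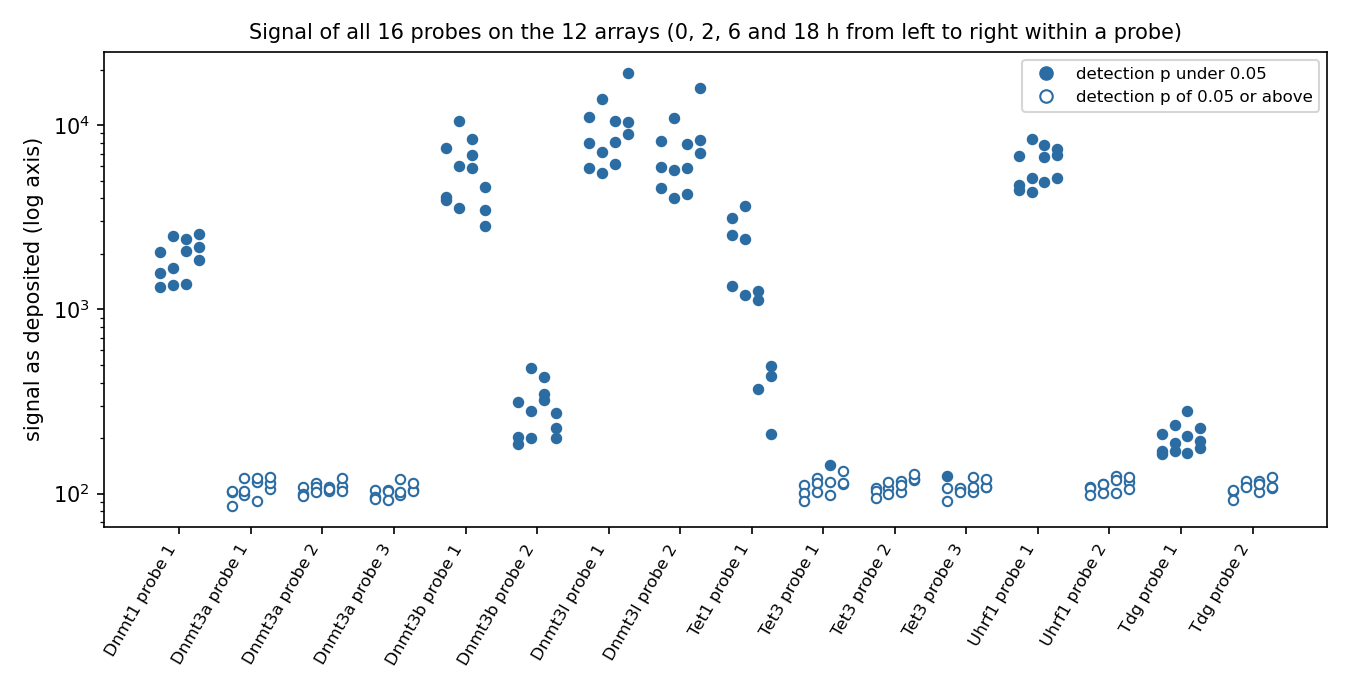
Deposited signal (vertical log axis, intensity units) of all 16 probes on the 12 arrays, with the 0, 2, 6 and 18 h arrays from left to right within each probe. Filled points had a detection p-value under 0.05; the probes of Dnmt3a and Tet3, Uhrf1 probe 2 and Tdg probe 2 stay between 86.1 and 142.3.

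No change of the maintenance pair passed the test in any comparison. Dnmt1 read 10.89, 10.88 and 10.74 (log2 signal) at 0 h, 10.80, 10.77 and 10.78 at 2 h, 10.70, 10.63 and 10.87 at 6 h, and 10.99, 11.00 and 10.76 at 18 h. The groups overlapped at every time. The change at 18 h against 0 h was 0.08 (SE 0.14, 95% confidence interval -0.23 to 0.39, adjusted p = 0.71), and over the 5 comparisons adjusted p was 0.479 to 0.912. Uhrf1 read 12.61, 12.42 and 12.42 at 0 h, 12.64, 12.42 and 12.48 at 2 h, 12.73, 12.54 and 12.43 at 6 h, and 12.79, 12.58 and 12.41 at 18 h. Its groups overlapped at every time too, with a change of 0.11 at 18 h (SE 0.16, interval -0.23 to 0.45, adjusted p = 0.638). For both genes these intervals leave room for small changes. Neither reaches the estimate of -0.66 for Dnmt3b probe 1, but that estimate had its own interval of -1.11 to -0.22. No difference between genes was tested. Over the alternatives the 18 h change ran from -0.18 to 0.16 for Dnmt1 and from -0.32 to 0.21 for Uhrf1. The other Uhrf1 probe was detected on 0 of 12 arrays.

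Genes that work with these enzymes were counted in lists taken from general knowledge, chosen with earlier results of these data known. The counts of these lists are therefore not independent of the data, and the shares over all genes stand beside them for scale only. Each gene was taken by its brightest testable probe. Over the 11445 genes so represented, 2.99% passed at 2 h, 30.1% at 6 h and 35.3% at 18 h. At 2 h 0.882% were lower and 2.11% higher, at 6 h 17.1% (1957 genes) were higher and 1491 genes lower, and at 18 h 15.0% lower and 20.2% higher. Of the list of methyl-CpG readers, proteins that bind the finished mark apart from Mbd3, 6 of 9 could be tested. None of the 6 passed at 2 h, 1 fell at 6 h (Mbd3) and 2 fell at 18 h (Mbd3 and Mbd2). The median log2 change of the 6 was -0.32, -0.32 and -0.04, against -0.00474, 0.02 and 0.05 over all genes. Mbd3, a subunit of the NuRD deacetylase complex that binds methylated DNA poorly, stood at 5.45 ± 0.26 at 18 h, against 6.64 ± 0.09 at 0 h (SD, n = 3 each), a change of -1.20 (adjusted p = 0.00115), and had already fallen at 6 h (adjusted p = 0.00466). Mbd2, which brings NuRD to methylated DNA, stood at 5.54 ± 0.55 at 18 h, against 7.65 ± 0.64 at 0 h, a change of -2.11 (adjusted p = 0.00163). It was detected on 2 of 3 arrays at 18 h, and without background correction its change was -1.08.

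Among recruiters and regulators of DNA methylation, 13 of 15 genes could be tested. At 2 h 1 fell, at 6 h 5 fell and 1 rose, and at 18 h 6 fell and 0 rose by limma, with median changes of -0.12, -0.31 and -0.43. Prdm14, a repressor of Dnmt3b and Dnmt3l in mouse embryonic stem cells, had a detectable signal on the 3 arrays of 0 h and on 0 of 9 later arrays. It therefore entered the test only through the group where it was high, and its place among the counts rests on that filter. It was at least 1.62-fold lower at 2 h, at least 1.65-fold lower at 6 h and at least 1.68-fold lower at 18 h. Its 2 h call was lost under 10 of 24 alternatives. Fitted with all probes and no filter, its adjusted p was 0.0573 at 2 h, 0.00235 at 6 h and 0.00191 at 18 h. These bounds set the 0 h mean against the higher of the probe's own signal and the dimmest detected signal on each later array. Cdca7, an activator of the remodeller Hells, averaged 10.04 ± 0.33 at 18 h and 11.10 ± 0.14 at 0 h (SD, n = 3 each), a change of -1.07 (adjusted p = 0.000881), and its 6 h change was -1.14 (adjusted p = 0.000785). Nsd1, which methylates histone H3 at a lysine read by Dnmt3a, was not detected at 6 h and at least 2.77-fold lower there than at 0 h (adjusted p = 0.000606). Its change at 18 h was -1.46 (adjusted p = 0.000914). Setd2, whose histone mark is read by Dnmt3b, was the gene that rose at 6 h (0.69, adjusted p = 0.0279), a call lost under 6 of 24 alternatives, and its 2 other probes changed by 0.02 and 0.20. The other genes lower at 18 h, named after their values were seen, were Trim28 (-0.97), Usp7 (-0.77, with -0.997 and 0.21 on its other probes) and Ehmt1 (-0.64), and those lower at 6 h were Ehmt2 and Kdm1a (-0.60 each).

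Of the partners of demethylation and base excision repair, 13 of 18 could be tested. None of the 13 passed at 2 h, 3 fell at 6 h, and at 18 h 5 fell and 2 rose, with median changes of -0.08, -0.35 and -0.56. These counts rest on the brightest probe. On that probe Ogt, named after its values were seen, changed by -0.32 at 6 h and -0.58 at 18 h (adjusted p = 0.0528) and was not called. Its 3 other testable probes changed by -1.70 to -0.55 at 6 h and by -1.70 to -1.20 at 18 h. Gadd45a, a stress gene linked to active demethylation, stood at 9.23 ± 0.37 at 18 h, against 10.44 ± 0.11 at 0 h (SD, n = 3 each), a change of -1.21 (adjusted p = 0.000246), and at 6 h its change was -1.08 (adjusted p = 0.000774). Ung, a glycosylase that removes uracil, changed by -1.10 at 18 h (adjusted p = 0.000368), and its 2 other testable probes by -0.87 and -0.29. Nthl1, a glycosylase for oxidised pyrimidines, changed by -1.14 at 6 h (adjusted p = 0.000512) and -0.79 at 18 h (adjusted p = 0.00418). Gadd45g changed by -1.28 at 6 h (adjusted p = 0.011) on its brightest probe and by -0.43 on its other testable probe. Apex1 (-0.79) and Lig3 (-0.60, with -1.06 to -0.11 on its 3 other probes), an endonuclease and a ligase of the repair path, were also lower at 18 h. The 2 that rose were Smug1, a uracil glycosylase (0.68, adjusted p = 0.0169), and Polb, the repair polymerase (0.63, adjusted p = 0.034). Without 0 h replicate 1, 3 fell and 0 rose at 18 h.

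Of the genes that supply the methyl donor or 2-oxoglutarate, the cosubstrate of the Tet enzymes, 8 of 11 could be tested. At 6 h 1 rose and 1 fell, and at 18 h 1 rose and 2 fell, with median changes of -0.21 and -0.31. Idh1, which makes 2-oxoglutarate in the cytosol, averaged 10.19 ± 0.12 at 18 h and 9.20 ± 0.13 at 0 h (SD, n = 3 each), a rise of 0.99 (adjusted p = 0.00402), after 0.65 at 6 h (adjusted p = 0.0437). The serine hydroxymethyltransferases Shmt1 (-0.63, adjusted p = 0.0144) and Shmt2 (-0.45, adjusted p = 0.0479) fell at 18 h, the Shmt2 call being lost under 13 of 24 alternatives. Mat2b, a regulatory subunit of the enzyme that makes the methyl donor, changed by -0.53 at 6 h (adjusted p = 0.0338) on its brightest probe, and its 2 other probes changed by -2.04 and 0.68.

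Germline genes whose promoters are known targets of DNA methylation in somatic cells were counted as well. Of 14 such genes 10 could be tested, and 7 of these were already detected on all 3 arrays at 0 h. None of the 10 passed at 2 h, 1 rose and 2 fell at 6 h, and at 18 h 7 rose and 0 fell by limma, with a median change of 0.79 at 18 h (0.76 with Sycp1 at its bound), against 0.05 over all genes. The filter drops genes that stay dim and keeps dim genes that rise, so the count over the 10 leans to genes that rose. Fitted with no filter, all 14 genes gave 6 higher and 0 lower at 18 h, with a median change of 0.59, and the 4 dropped genes, Mael, Sycp3, Slc25a31 and Hormad1, did not pass. Tex19.1, a germline protein of mammals that mouse embryonic stem cells also express, stood at 12.94 ± 0.21 at 6 h and 12.72 ± 0.77 at 18 h, against 10.76 ± 0.48 at 0 h (SD, n = 3 each). Its changes were 2.19 at 6 h (adjusted p = 0.000292) and 1.97 at 18 h (adjusted p = 0.000413). Taf7l, a testis form of a general transcription factor subunit, rose by 1.66 at 18 h (adjusted p = 0.000562). Asz1, a component of the piRNA pathway, was lower at 6 h (-0.78, adjusted p = 0.00468) and higher at 18 h (0.78, adjusted p = 0.0037), and so was Stk31 (-0.77, adjusted p = 0.0266, and 0.73, adjusted p = 0.0281). The other genes that rose at 18 h were Dazl, an RNA-binding protein of germ cells (1.32), Tuba3a (1.15) and Sycp1, a protein of the synaptonemal complex, which was not detected at 0 h, entered the test through later arrays only, and was at least 1.38-fold higher at 18 h (adjusted p = 0.046 with no filter). Without 18 h replicate 3, 4 of the 10 rose. Whether these genes moved with DNA methylation was not tested.

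**Figure D4:**
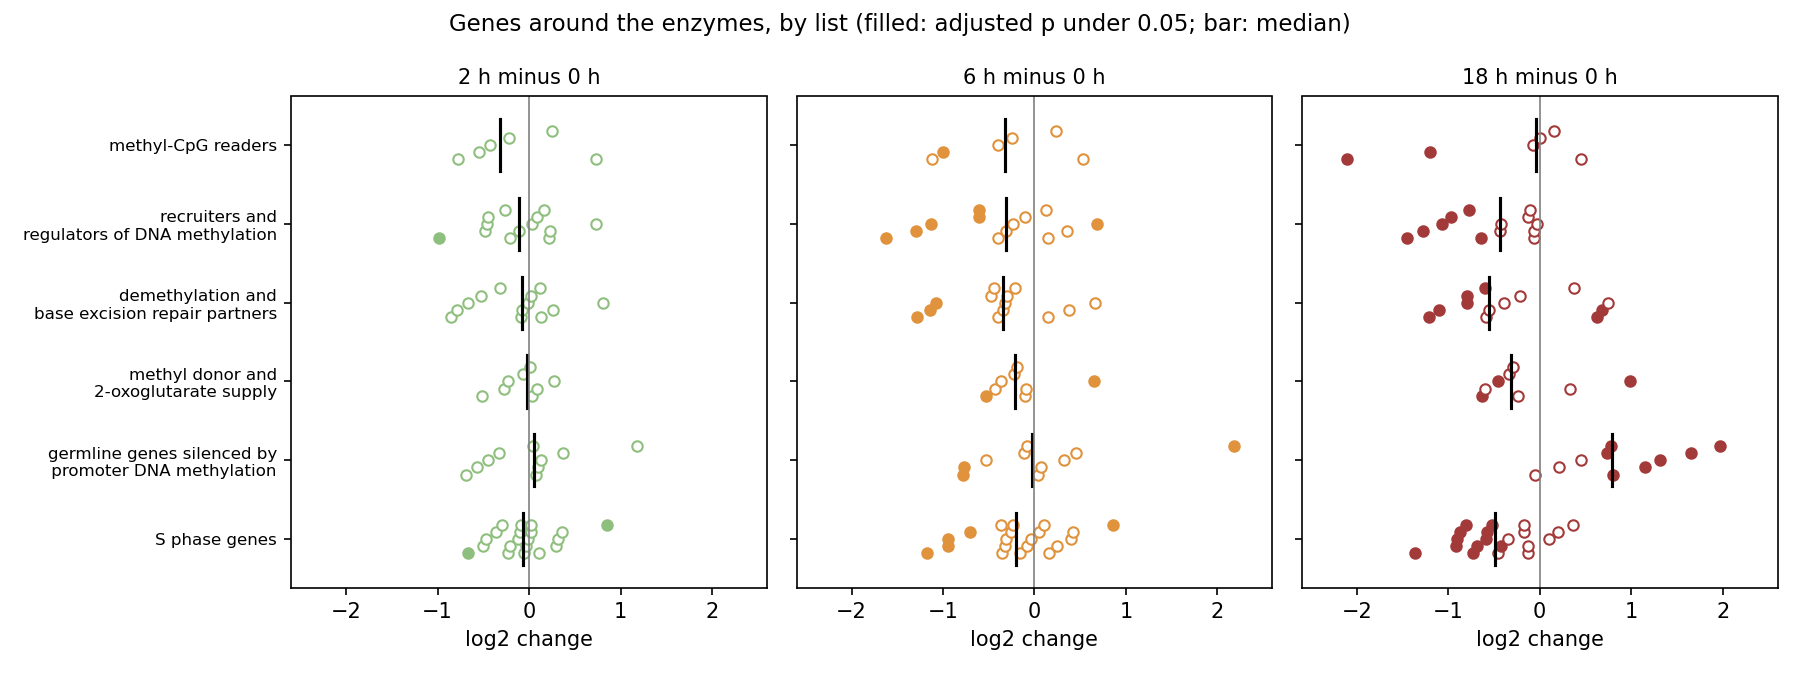
Log2 change at 2, 6 and 18 h against 0 h (panels, horizontal axes) of each testable gene in 6 lists of genes around the enzymes (rows); filled points have an adjusted p under 0.05 and the black bars are list medians. At 18 h the median of the germline genes lies to the right of 0 (0.79) and those of the regulators (-0.43), repair partners (-0.56) and S phase genes (-0.49) to the left, with single genes on either side in these lists but the regulators.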

How the data were processed

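RNA of 12 cultures or aliquots (the labels do not say which) was measured on Illumina bead arrays, and every array was assigned to its group by its label. The deposited table holds, per the file headers, a signal intensity and a detection p-value for each probe and array; GenomeStudio, of no stated version, produced it for the authors per the submitters' processing notes. From the values these intensities were neither background corrected nor normalized, and the steps of the detection p-value fit 936 negative controls. The authors' second deposited table holds normalized intensities, quantile normalized as judged from the values (column medians 117.3 to 117.4), and served as an alternative. No genome build for the probes is given in the sources used here.

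Probe annotation gave 34885 probes with 1 gene, and 34807 symbols were updated through the RefSeq gene table of GRCm38.p6. Intensities were background corrected with normexp in limma 3.58.1 (R 4.3.3), with background taken from the detection p-values and 16 as the offset, quantile normalized and taken to log2. A probe was kept if 3 or more arrays gave it a detection p-value under 0.05 (20029 probes). Group means were fitted to all 12 arrays with limma, with 2-sided moderated tests, a moderated F test and Benjamini-Hochberg adjustment over all kept probes; the threshold was 0.05. Log2 changes had a median SE of 0.206, a precision limited by how many arrays there were. When data were simulated for 6 h against 0 h over 20029 probes, 2, 26, 49 and 50 of 50 changed probes were recovered at log2 changes of 0.5, 1, 2 and 3.5, with 7 false calls. The simulated noise was independent between arrays and only these probes changed, whereas 27.2% of all probes passed at 6 h in the measured data. The adjustment depends on the share changed, so these figures describe the simulated setting and not the reported fit.

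All probes of the 9 enzymes were named. From each gene list, the 3 genes with the smallest adjusted p in each direction and comparison with 0 h were named, by the kept probe with the highest mean, and for each enzyme whose leading probe passed the F test the 2 genes best correlated with it. The enzymes and lists were chosen with earlier results of these data known. Promoter sequences came from a RefSeq table, matched by symbol for all 9 enzymes, with 16 starts. Alternatives covered background, scaling, filter, probe choice, samples, a replicate block, array weights and leaving out each array.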

Additional observations from a re-analysis of the deposited data

How the results depend on the processing

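Over 24 alternatives, gene-level results kept their side of the threshold in 1916 cases, lost the call in 112 and gained it in 28. The 24 are not independent of each other. No background correction and the authors' normalized values called 586 probes each at 2 h against 0 h, and 12 alternatives each leave out 1 array. The sign of a log2 change turned in 29 of 1876 cases, all of them called neither as reported nor under the alternative, and in 0 that were called. The counts of probes called moved most. At 2 h against 0 h, 513 probes passed, with 988 under a replicate block, 799 with array weights, 248 with only the groups compared, and 142 to 704 when leaving out 1 array. At 6 h against 0 h 5440 passed, with 3586 when only leading probes were fitted, 3576 with the mean of a gene's probes, and 3734 to 5827 leaving out 1 array; at 18 h against 0 h 6472 passed, with 4184, 4195 and 4735 to 6789. Both gene-level settings test fewer features. At 6 h against 2 h 1963 passed, with 3036 under the block, 3872 with array weights and 674 to 2428 leaving out 1 array, and at 18 h against 6 h 1832, with 2993 under the block and 859 to 2189. The F test called 7736, with 5021 for leading probes, 4944 for means and 6553 to 7981 leaving out 1 array.

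Of the enzymes' probes, 0 passed at 6 h against 0 h and 0 at 6 h against 2 h with no filter on dim probes (Tet1 lost its call), 5 at 18 h against 0 h and 5 at 18 h against 6 h under the replicate block, 1 at 18 h against 6 h and 2 in the F test with leading probes only, where fewer enzyme probes enter. Leaving out 1 array gave 0 to 0 at 2 h against 0 h, 0 to 1 at 6 h, 1 to 4 at 18 h, 0 to 1 at 6 h against 2 h, 2 to 4 at 18 h against 6 h and 3 to 6 in the F test. Tet1 at 6 h against 2 h was not called without 0 h replicate 1 (adjusted p = 0.0543), 2 h replicate 1 (0.125) or 3 (0.14), or 6 h replicate 1 (0.0781) or 2 (0.175), or with no filter (0.134), and at 18 h against 6 h it was called under the block (0.0357) and without 6 h replicate 2 (0.0443). Other causes were not tested.

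With scaling to the 75th percentile the median change of all probes was -0.126 at 6 h and -0.172 at 18 h, against -0.01 at both times as reported, and this scaling called 2509 higher and 4298 lower at 18 h against 0 h, where the reported split was 3305 and 3167, and 2343 and 2992 at 6 h, where it was 2857 and 2583. Without background correction dim probes changed less: Mbd3 at 18 h by -0.49, Mbd2 by -1.08, Prdm14 by -0.48 and Nsd1 by -0.57, all still called. Among the genes of the lists, calls were lost under 11 of 24 alternatives for Idh1 at 6 h, 10 for Prdm14 at 2 h, 6 for Mat2b at 6 h, 4 for Stk31 at 6 h, 6 for Polb, 3 for Smug1 and 2 for Shmt1 at 18 h, and 1 for Gadd45g at 6 h. Same-numbered arrays deviated together with a correlation over 0.1 in 16 of 18 pairs (range 0.0591 to 0.432), and 11 of 12 arrays were closest to their own number, a hint from the data that numbers are shared. The labels do not say so and 2 pairs, both with an 18 h array, missed 0.1, so the reported fit has no block. A block for the array's chip was not run, since the files name no chips. Probes near background, those of Dnmt3a and Tet3 among them, allow no statement on a change.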

Other observations

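Genes of S phase, when Uhrf1 and Dnmt1 copy methylation to the new strand, were counted by the same rule. This list too was chosen with earlier results of these data known. All 20 listed genes could be tested. At 2 h 1 rose and 1 fell, at 6 h 1 rose and 4 fell, and at 18 h 11 fell and 0 rose by limma, against 15.0% of 11445 genes lower at 18 h, and the median log2 change at 18 h was -0.49, against 0.05 over all genes. Mcm3, a subunit of the replicative helicase, stood at 6.89 ± 0.28 at 18 h, against 8.25 ± 0.26 at 0 h (SD, n = 3 each), a change of -1.36 (adjusted p = 0.000124), and Mcm2, another subunit, changed by -0.91 (adjusted p = 0.000833). Cdt1, which loads that helicase, was lower at 2 h (-0.67, adjusted p = 0.0261), 6 h (-0.94, adjusted p = 0.000421) and 18 h (-0.91, adjusted p = 0.000379). Cdc6, its partner in loading, was higher at 2 h (0.86, adjusted p = 0.0178) and 6 h (0.86, adjusted p = 0.00225) and lower at 18 h (-0.69, adjusted p = 0.00695). Rrm2, a subunit of the enzyme that makes deoxynucleotides, changed by -0.94 at 6 h (adjusted p = 0.000827). At 2 h, the Cdt1 call was lost under 6 of 24 alternatives and the Cdc6 call under 7. Whether these genes and the enzymes of maintenance moved differently was not tested.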
